A study of Mus musculus with 4 samples.

Results

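The complement system is a cascade of plasma and membrane proteins that tags particles and cells for removal. The genes described here are 9 of its components and regulators, C3, C4b, Cfb, C1ra, C1s1, Serping1, Cd55, Cd59a and Cd46, taken by gene name from a table of 25413 genes: 5 effectors and 4 inhibitors. RNA came from EpH4, an immortalised line of mouse mammary epithelial cells labelled as wild type and grown in 2D culture. In 2 libraries the cells were treated with PM2.5, fine airborne particulate matter, and in 2 Control libraries they were untreated. The labels give no dose and no exposure time, name 1 batch for all 4 libraries, and do not say whether the libraries of a group came from separate cultures, so p-values measure only the spread between these libraries, which may be technical.

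In the classical pathway the proteases C1r and C1s cut C4 and C2, and the fragments form an enzyme that cuts C3. Factor B, the product of Cfb, forms the corresponding enzyme of the alternative pathway, which amplifies the cut of C3. C1 inhibitor, the product of Serping1, blocks C1r and C1s. CD55 stops the C3-cutting enzymes on the cell's own surface, and CD46 is a cofactor for the breakdown of the C3 fragment C3b. CD59 stops the last step, the assembly of the membrane attack pore. The liver makes most plasma complement, and epithelial cells, fibroblasts and macrophages also make components locally, C3 among them, with more of it in inflammation.

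The stretches before the gene starts of C3, C1ra and C1s1 are shown because these were the members with the highest transcript levels. They are RefSeq sequence of build GRCm38.p6, 250 bases before the gene start, for C3 chr17:57228137-57228386 on the minus strand, for C1ra chr6:124512371-124512620 on the plus strand and for C1s1 chr6:124542360-124542609 on the minus strand. Capitals mark matches to the C/EBP motif TTNNGCAA.
C3: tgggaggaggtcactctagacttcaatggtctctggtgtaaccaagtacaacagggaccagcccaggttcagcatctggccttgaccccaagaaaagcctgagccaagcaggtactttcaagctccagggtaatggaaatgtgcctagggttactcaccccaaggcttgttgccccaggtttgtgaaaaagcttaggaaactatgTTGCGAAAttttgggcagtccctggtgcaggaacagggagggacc
C1ra: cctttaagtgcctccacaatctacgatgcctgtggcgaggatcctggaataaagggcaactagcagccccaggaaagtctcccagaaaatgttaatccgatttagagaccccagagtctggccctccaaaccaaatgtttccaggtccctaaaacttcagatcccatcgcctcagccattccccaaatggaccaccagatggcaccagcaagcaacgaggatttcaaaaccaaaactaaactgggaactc
C1s1: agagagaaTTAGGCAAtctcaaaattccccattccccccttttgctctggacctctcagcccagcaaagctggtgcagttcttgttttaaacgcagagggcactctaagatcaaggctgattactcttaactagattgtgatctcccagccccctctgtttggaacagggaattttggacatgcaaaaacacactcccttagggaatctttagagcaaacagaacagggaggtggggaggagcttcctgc

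Windows were found for 6 of the 9 members. The motifs searched on both strands were TTNNGCAA for C/EBP, TTCNNNGAA for STAT, the interferon-stimulated response element, TGANTCA for AP-1, GCGTG for the core of the xenobiotic response element, and the NF-kB consensus. The C3 window held 1 match, to the C/EBP motif on the reverse strand, 45 to 38 bases before the start, and the printed C1s1 window held 1 match to the same motif, 242 to 235 bases before the start. The window of a second annotated C1s1 start, largely the same sequence, held none. The C1ra window held no match to these letters. Of 32536 promoter windows of this length, 9.57% held the C/EBP motif. Cd59a held the interferon-stimulated response element, which 2.98% of the windows held, and Cd55 and Cd46 held GCGTG, which 28.3% held. No window of a member held the STAT motif (7.04% of all windows), the AP-1 motif (6.73%) or the NF-kB consensus (7.28%). The NF-kB letters, GGGRNNYYCC, were set after a looser form was seen to match many windows, so their absence here depends on that choice.

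Total counts were 20232277 and 18548478 in the PM2.5 libraries and 19562930 and 26206329 in the Control libraries. The labelled cell type was set against marker genes. Of 14 epithelial markers, 6 had 0 counts in all 4 libraries, namely Epcam, Krt18, Krt19, Krt5, Cldn4 and Esrp1, and the keratin gene Krt14 alone averaged over 10 CPM (CPM being counts scaled to a common library size, here corrected by TMM). The 14 summed to 22.04 and 21.1 CPM in PM2.5 and 53.5 and 51.5 CPM in Control. The 8 fibroblast markers, none at 0 throughout, summed to 2426 and 2545 CPM in PM2.5 and 2720 and 2572 CPM in Control. Col1a2 alone made up 1811 and 1837 CPM of this in PM2.5 and 2209 and 2046 CPM in Control, 5 of the 8 averaged over 10 CPM, and 2, Lum and Thy1, averaged under 1 CPM. The measured markers therefore went against the epithelial label. The 10 leukocyte markers summed to 68.0 and 75.5 CPM in PM2.5 and 64.9 and 75.3 CPM in Control, with Itgam and Tyrobp at 0 throughout and Ptprc at no more than 3 counts. Cd14 alone made up 52.3 and 57.6 CPM of this in PM2.5 and 55.9 and 65.3 CPM in Control. Of the 10, 7 averaged under 1 CPM. The 6 endothelial markers summed to 0.436 and 0.843 CPM in PM2.5 and 1.05 and 0.504 CPM in Control, and all 5 hepatocyte markers were at 0. Markers of 1 list did not move together: of the 2 tested epithelial markers Krt14 was lower and Grhl2 higher, and of the 6 tested fibroblast markers Col1a1, Col3a1 and Dcn were higher, Col1a2 and Pdgfrb lower and Pdgfra not called (edgeR, adjusted p below 0.05). Krt14 had 20.7 and 18.6 CPM in PM2.5 and 53.03 and 51.01 CPM in Control, and Grhl2 had 0.581 and 1.001 CPM in PM2.5 and 0.105 and 0.233 CPM in Control. Dcn had 221 and 280 CPM in PM2.5 and 44.04 and 83.6 CPM in Control, and Pdgfrb had 158 and 172 CPM in PM2.5 and 250.3 and 218 CPM in Control. Of the 3 tested leukocyte markers Cd68 was higher, with 9.01 and 10.3 CPM in PM2.5 and 3.63 and 4.22 CPM in Control, and Lyz2 and Cd14 were not called. Their part in the results was not tested, and fewer cells of a type cannot be told apart from less RNA per cell in these bulk samples.

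Transcripts of all 5 effectors were higher after PM2.5. C3, the central component, was 2.60-fold higher, the C4 gene C4b 4.70-fold, factor B 3.26-fold, C1s1 2.88-fold and C1ra 1.80-fold. The factor B value rests on the raw count. On total gene reads, a second deposited count described below, the log2 fold change of factor B was only 0.40. Among the inhibitors, Serping1 was 10.3-fold and Cd59a 1.54-fold higher, Cd46 did not pass the test, and Cd55 had no raw count in any library. Of the 9 members, 8 had enough counts to be tested, and 7 of these were higher and 0 lower (edgeR quasi-likelihood test, adjusted p below 0.05). Over all 12478 genes tested, 39.6% were called, 19.2% as higher and 20.4% as lower. All 8 tested members had a log2 fold change above 0, so the number lower could only be 0, also at an unadjusted p below 0.05. With DESeq2 and with limma-voom no member changed sign, and the number lower was again 0. The median log2 fold change of the 8 tested members was 1.45, beside 0.0063 over all genes tested. More than 2-fold higher on the raw count were 5 members, factor B included, against 4.63% of all genes tested. Both PM2.5 libraries lay above both Control libraries for all 8 tested members, which held for 35.9% of all genes tested. The members were chosen with earlier results of these data known, so these shares are a background and not a test of the list.

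**Figure D1:**
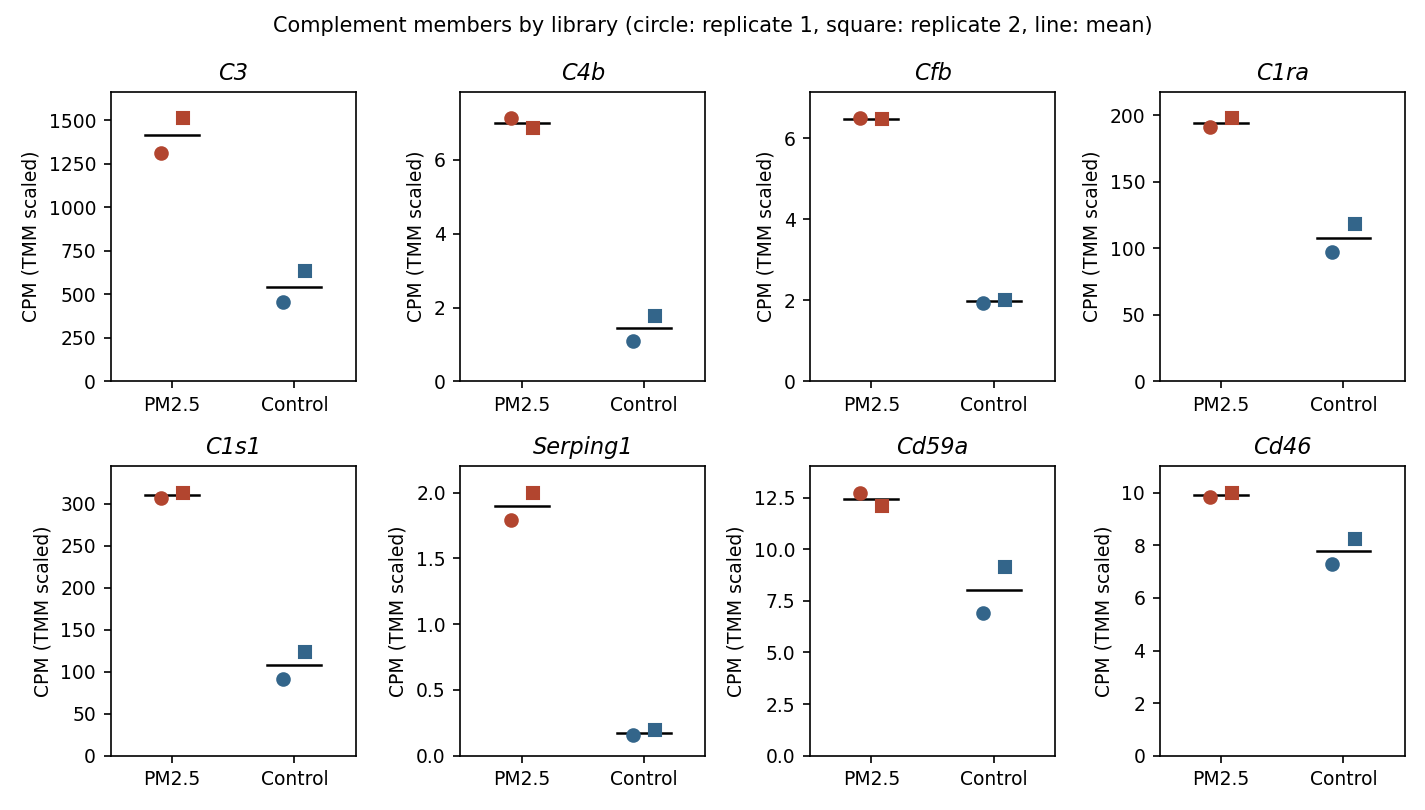
TMM-scaled CPM (vertical axes, each from 0) of the 8 counted members in the PM2.5 libraries (red) and the Control libraries (blue), with replicate 1 as a circle, replicate 2 as a square and the group mean as a line. Both PM2.5 libraries lie above both Control libraries in every panel, and Cd46 has the smallest fold, with means of 9.92 CPM in PM2.5 and 7.78 CPM in Control.

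C3 (ENSMUSG00000024164, chromosome 17, 57510970 to 57535136, minus strand, GRCm39) was the most abundant member by RPKM. It had 1315 and 1512 CPM in the PM2.5 libraries and 455 and 633 CPM in the Control libraries. The groups did not overlap, and the libraries of each group differed by less than the groups did. The log2 fold change was 1.38 ± 0.126 (SE), with an edgeR adjusted p of 2.44e-05. Per length, on the deposited RPKM scale, C3 averaged 233 ± 23.6 in PM2.5 and 88.1 ± 20.5 in Control (SD, n = 2 each). It made up 58.7% and 61.5% of the summed RPKM of the 9 members in the PM2.5 libraries and 56.2% and 58.2% in the Control libraries.

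C1ra and C1s1 encode the paired proteases of the first complement complex and lie 6.9 kb apart on chromosome 6, C1ra on the plus strand (ENSMUSG00000055172, 124489364 to 124500402) and C1s1 on the minus strand (ENSMUSG00000038521, 124507304 to 124519318). C1s1 had 307 and 314 CPM in PM2.5 and 91.5 and 124 CPM in Control, or 1.52 ± 0.108 (SE) on the log2 scale (edgeR adjusted p = 5.59e-06). C1ra had 191 and 198 CPM in PM2.5 and 97.2 and 118 CPM in Control, or 0.85 ± 0.083 (SE) on the log2 scale (edgeR adjusted p = 3.65e-05). Both genes were higher in each PM2.5 library, C1s1 by the larger factor. The RPKM ratio of C1s1 over C1ra was 1.60 and 1.58 in the PM2.5 libraries and 0.938 and 1.04 in the Control libraries. Its group means, 1.59 ± 0.016 in PM2.5 and 0.991 ± 0.074 in Control (SD, n = 2 each), lay further apart than the replicates. A 2-sided exact permutation test gave p = 0.333, the smallest that 2 libraries against 2 can give.

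**Figure D2:**
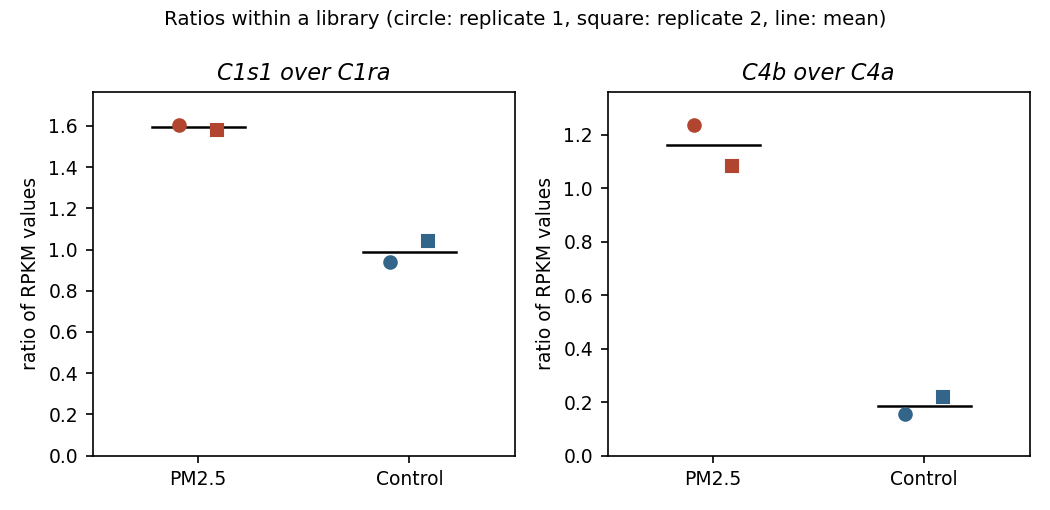
Ratios of deposited RPKM values within each library, C1s1 over C1ra on the left and C4b over C4a on the right, for PM2.5 (red) and Control (blue), with replicate 1 as a circle, replicate 2 as a square and the mean as a line. The C1s1 ratio is 1.60 and 1.58 in PM2.5 against 0.938 and 1.04 in Control, and the C4b ratio 1.24 and 1.08 in PM2.5 against 0.156 and 0.218 in Control.

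C1s2 and C1rb, close mouse copies of C1s1 and C1ra, had few reads, and counts between such copies are uncertain. C1s2 had 45 and 77 counts in PM2.5 and 4 and 13 counts in Control, or 3.02 ± 0.456 (SE) on the log2 scale (edgeR adjusted p = 5.50e-04). Without Control replicate 2 this log2 fold change was 3.84, with 4 counts left on the Control side. C1rb had 5 and 7 counts in PM2.5 and 0 and 1 counts in Control and was not tested. The ratio of C1rb counts after scaling was 13.6, with a 95% exact counting interval of 2.01 to 580. The copies had at most 1.45% of the RPKM of C1s1 and 0.229% of that of C1ra in any library.

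C4b, the C4 gene (ENSMUSG00000073418, chromosome 17, 34947354 to 34962856, minus strand), had 7.12 and 6.85 CPM in PM2.5 and 1.104 and 1.78 CPM in Control. These rest on 147 and 130 counts in PM2.5 and 21 and 46 counts in Control. The groups were well apart, at 2.23 ± 0.234 (SE) on the log2 scale (edgeR adjusted p = 5.61e-05). C4a, a close copy of C4b that lies 65.2 kb away on the same strand, did not pass the test. It had 5.72 and 6.27 CPM in PM2.5 and 7.04 and 8.10 CPM in Control, or -0.35 ± 0.154 (SE) on the log2 scale (edgeR adjusted p = 0.0995). With total gene reads, a second deposited count described below, C4a was lower at -0.42 (adjusted p = 0.0217). The RPKM ratio of C4b over C4a was 1.24 and 1.08 in PM2.5 and 0.156 and 0.218 in Control, with the same exact permutation p of 0.333. How reads that match both copies were assigned is not given in the sources used here.

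Cfb (ENSMUSG00000090231, chromosome 17, 35075350 to 35081494, minus strand) had 6.49 and 6.48 CPM in PM2.5 and 1.95 and 2.02 CPM in Control, or 1.71 ± 0.194 (SE) on the log2 scale (edgeR adjusted p = 9.38e-05). The libraries of each group were nearly alike, and the counts were 134 and 123 in PM2.5 and 37 and 52 in Control. This value depends on which reads are counted. The deposited files hold, beside the raw count, a count named total gene reads, which is never below the raw count and whose difference from it the headers do not define. For Cfb it was 419 and 352 in PM2.5 and 259 and 385 in Control, so the raw count held 33.3% of it in PM2.5 and 13.8% in Control, beside a median of 87.4% over the genes tested. On total gene reads the log2 fold change of Cfb was 0.40 ± 0.106 (SE), with an edgeR adjusted p of 0.0161, where 39.1% of 13928 genes tested were called, 18.7% as higher. On that count 8 members were higher, Cd55 included and Cd46 not. The reads outside the raw count came, on the CPM scale without TMM, to 14.1 and 12.4 in PM2.5 and 11.4 and 12.7 in Control, and these ranges overlap.

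The neighbour C2, which encodes the partner of C4 in the classical enzyme and lies 0.086 kb from Cfb, had 0 and 2 raw counts in PM2.5 and 1 and 1 in Control. Its total gene reads were 216 and 213 in PM2.5 and 235 and 299 in Control, so nearly all of them lay outside the raw count. Both genes overlap the predicted gene Gm20547 on the same strand, Cfb over 6107 bases and C2 over 19439 bases, and Gm20547 was listed at 0 in both counts in all 4 libraries. The part of this overlap in the values of Cfb and C2 was not tested.

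**Figure D3:**
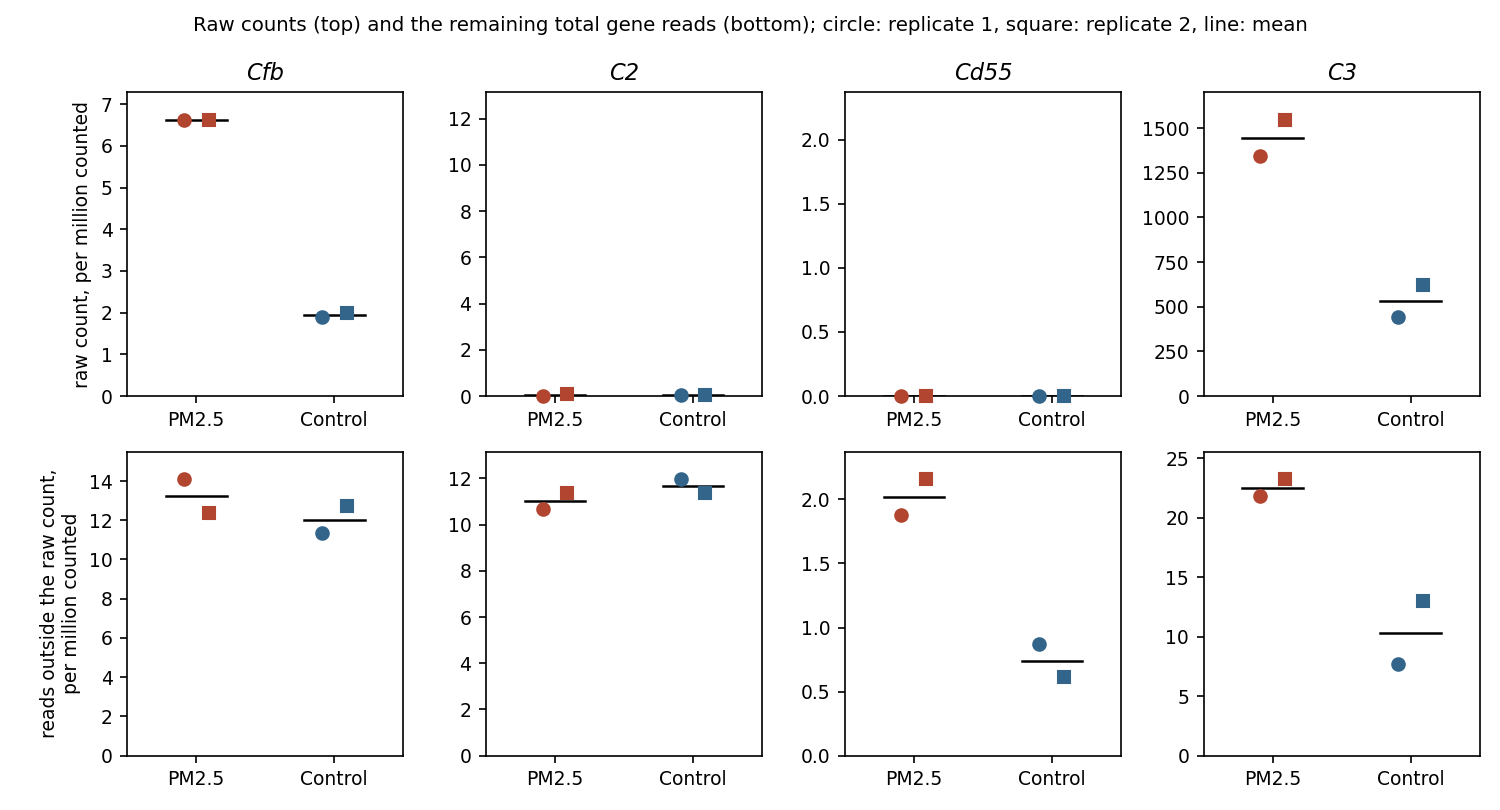
Raw counts (top row) and total gene reads outside the raw count (bottom row), both on the CPM scale without TMM, for Cfb, C2, Cd55 and C3 in PM2.5 (red) and Control (blue), with circles for replicate 1, squares for replicate 2 and lines for means. Reads outside the raw count of Cfb overlap between the groups, those of C2 make up nearly all its reads, and those of Cd55 are 1.88 and 2.16 in PM2.5 against 0.869 and 0.611 in Control.

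Serping1 (ENSMUSG00000023224, chromosome 2, 84595731 to 84605788, minus strand), the gene of C1 inhibitor, had the largest fold change of the tested members and few reads. It had 37 and 38 counts in PM2.5 and 3 and 5 counts in Control, or 1.79 and 2.00 CPM in PM2.5 and 0.158 and 0.194 CPM in Control. The Control values lie at or near the level of 3 counts, which is 0.116 to 0.158 CPM depending on the library. The log2 fold change was 3.37 ± 0.426 (SE), with an edgeR adjusted p of 1.84e-04. The ratio of pooled counts after scaling was 10.6, with a 95% exact counting interval of 5.11 to 25.5.

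Of the surface inhibitors, Cd59a (ENSMUSG00000032679, chromosome 2, 103926146 to 103945699, plus strand), which encodes the membrane-anchored blocker of the attack pore, had 12.7 and 12.1 CPM in PM2.5 and 6.89 and 9.15 CPM in Control. Its log2 fold change was 0.62 ± 0.148 (SE), with an edgeR adjusted p of 0.0079, and against a minimum change of 1.5-fold it was not called (adjusted p = 1). Its copy Cd59b had at most 1 raw count in any library. The total gene reads of Cd59b were 33 and 21 in PM2.5 and 13 and 27 in Control, with overlapping groups. Cd46 (ENSMUSG00000016493, chromosome 1, 194719134 to 194774557, minus strand), a cofactor for the breakdown of C3b, had 9.83 and 10.01 CPM in PM2.5 and 7.31 and 8.26 CPM in Control. The groups did not overlap, but the log2 fold change of 0.34 (SE 0.133) did not pass the test (edgeR adjusted p = 0.0626). Cd46 passed with upper-quartile scaling (0.39, adjusted p = 0.0429) and with library size only (0.41, adjusted p = 0.0368). It also passed with the replicate number as a block (0.35, adjusted p = 0.0397). Cd46 overlaps the predicted gene Gm37132 on its own strand over 2238 bases and Gm37366 on the other strand over 2297 bases, neither with more than 17 counts in a library.

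Cd55 (ENSMUSG00000026399, chromosome 1, 130366764 to 130390481, minus strand), the decay-accelerating factor, had 0 raw counts in all 4 libraries, which allows up to 0.145 and 0.158 CPM in the PM2.5 libraries and up to 0.158 and 0.116 CPM in the Control libraries. Its total gene reads were 38 and 40 in PM2.5 and 17 and 16 in Control. On these its log2 fold change was 1.36 ± 0.328 (SE), with an edgeR adjusted p of 0.0103, and the groups did not overlap. None of these reads entered the raw count, and where in the gene they lie is not given in the files. The neighbouring copy Cd55b was at 0 raw counts as well.

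Per length, the members fell into 2 ranges. In PM2.5, C3 at 233 RPKM was followed by C1s1 at 87.8 ± 1.47 and C1ra at 55.1 ± 1.47 RPKM. Far below came Cd59a at 5.80 ± 0.19, Cfb at 1.94 ± 0.0029, Cd46 at 1.32 ± 0.020, C4b at 1.09 ± 0.027 and Serping1 at 0.797 ± 0.0645 RPKM. In Control, C3 was followed by C1ra at 30.1 ± 4.21 and C1s1 at 30.0 ± 6.41 RPKM, which did not differ beyond their spread. Cd59a was at 3.68 ± 0.741, Cd46 at 1.02 ± 0.0895, Cfb at 0.583 ± 0.016, C4b at 0.222 ± 0.074 and Serping1 at 0.0727 ± 0.011 RPKM (SD, n = 2 each throughout). C1s1 lay above C1ra in both PM2.5 libraries and in Control replicate 2, and below it in Control replicate 1. Cfb lay above Cd46 in both PM2.5 libraries and below it in both Control libraries, and the place of Cfb rests on its raw count. Cd55 was listed at 0. In every counted member Control replicate 1 was below Control replicate 2, by a factor of 1.04 for Cfb to 1.62 for C4b, while PM2.5 replicate 2 over replicate 1 ranged from 0.951 to 1.15.

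The 9 members lie on chromosomes 1, 2, 6 and 17, and the change of their neighbours was small. The neighbour median is the median log2 fold change of the 25 nearest tested genes on each side, or fewer at a chromosome end. It was -0.18 for C3, -0.029 for C4b, -0.0089 for Cfb, -0.053 for C1ra and for C1s1, -0.065 for Serping1, -0.023 for Cd59a and 0.13 for Cd46. Among these 8 genes only C3 and Cd46 had a neighbour median beyond 0.1 in size, and C3 moved against its own. With these medians as an offset in the fit, the same number of members, 7, was higher.

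Few of the other complement genes had enough counts to be tested. Of 49 other complement genes, 17 had 0 counts in all 4 libraries and 13 could be tested, of which 5 were higher and 2 lower. Their median log2 fold change was 0.27, beside 0.0063 for the 12478 genes tested in all. Of those 12478 genes, 19.2% were called as higher and 20.4% as lower. These shares are a background and not a test of the list. Untested were the C1q genes C1qa and C1qc, at 0 throughout, and C1qb, with 1 and 10 counts in PM2.5 and 0 in each Control library. The mannose-binding lectin genes Mbl1 and Mbl2 and the pore genes C7, C8a and C8b were also at 0. Of the terminal pathway only C8g was tested, with 1.502 and 1.37 CPM in PM2.5 and 0.683 and 0.969 CPM in Control (log2 fold change 0.77, edgeR adjusted p = 0.0998). The receptors for the released fragments, C3ar1, C5ar1 and C5ar2, had at most 5 counts in any library.

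**Figure D4:**
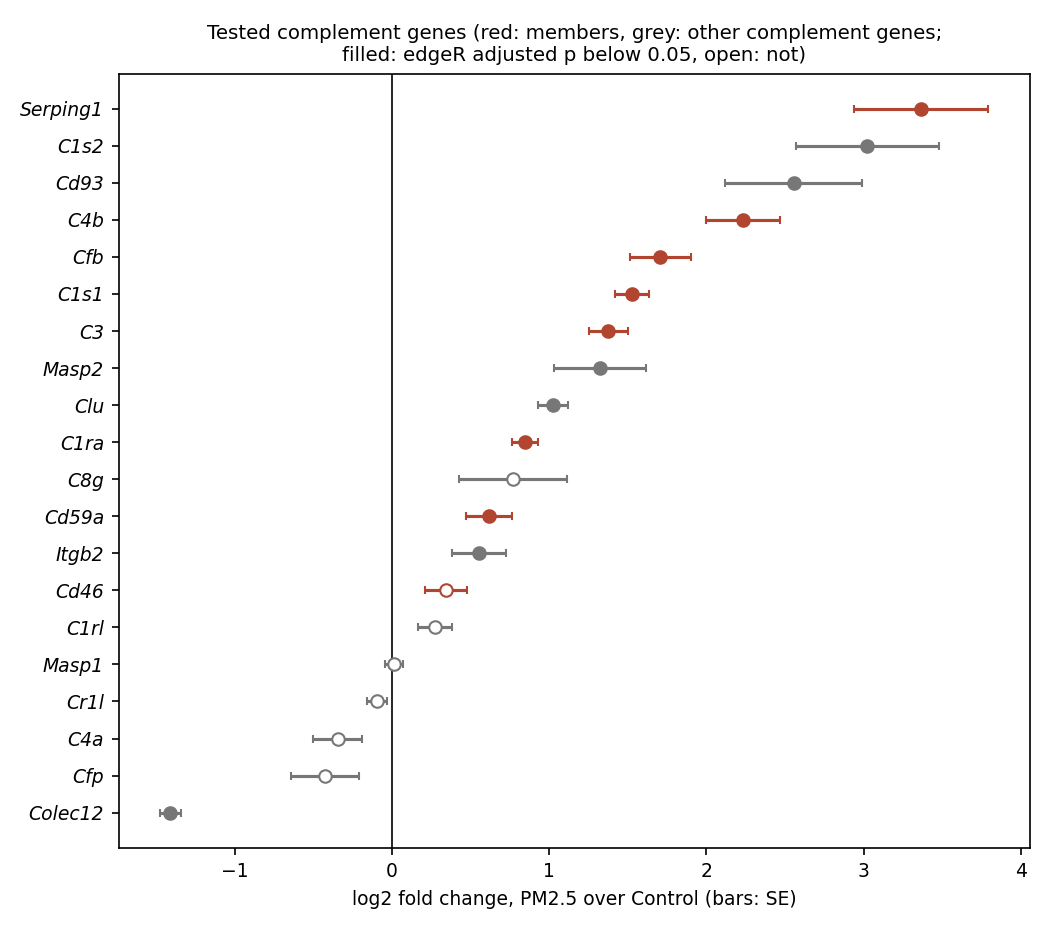
Log2 fold change of PM2.5 over Control with its SE (horizontal axis) for the 8 tested members (red) and other tested complement genes (grey), with filled points for edgeR adjusted p below 0.05. Of the genes shown, Serping1 is at the top at 3.37 and Colec12 at the bottom at -1.41.

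Colec12, a scavenger receptor with a collectin domain that can start the alternative pathway, fell to 51.1 and 48.7 CPM in PM2.5, against 129 and 136 CPM in Control (log2 fold change -1.41, SE 0.065, edgeR adjusted p = 2.55e-07).

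Clusterin, the product of Clu and an inhibitor of pore assembly, rose to 82.5 and 89.6 CPM in PM2.5, against 37.5 and 46.7 CPM in Control (log2 fold change 1.02, SE 0.096, edgeR adjusted p = 2.79e-05). With the neighbour offset Clu was at 0.64 (adjusted p = 7.48e-04). The lectin pathway protease gene Masp2 was at 2.33 and 2.37 CPM in PM2.5 and 0.893 and 0.969 CPM in Control (log2 fold change 1.32, SE 0.292, adjusted p = 0.00515). Its relative Masp1 was at 129 and 127 CPM in PM2.5 and 126 and 127 CPM in Control, with overlapping groups, at 0.015 ± 0.056 (SE) on the log2 scale (edgeR adjusted p = 0.859). Cd93, a surface glycoprotein once described as a C1q receptor, rose with 37 and 27 counts in PM2.5, against 7 and 5 in Control (log2 fold change 2.56, SE 0.436, adjusted p = 0.00119). Itgb2, the shared subunit of the leukocyte integrins that bind C3 fragments, was higher by 0.56 ± 0.171 (SE) on the log2 scale (edgeR adjusted p = 0.0256). That call ended without Control replicate 1, where it was 0.39 (adjusted p = 0.103), without PM2.5 replicate 1, where it was 0.42 (adjusted p = 0.159), with DESeq2 (adjusted p = 0.0789) and with total gene reads (adjusted p = 0.0508). Of the partners of Itgb2, Itgam was at 0 raw counts, and Itgax had 7 and 2 in PM2.5 and 1 and 0 in Control and was not tested.

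Cr1l, which encodes Crry, the rodent membrane inhibitor of C3 cleavage, had 51.7 and 53.5 CPM in PM2.5 and 55.5 and 56.8 CPM in Control (log2 fold change -0.095, SE 0.066, edgeR adjusted p = 0.278). Cr1l lies 5.13 kb from Cd46. Its own neighbour median was 0.28, beside 0.13 for Cd46, so the median differed between these adjacent genes. With the neighbour offset Cr1l was lower at -0.37 (adjusted p = 0.00204) and Cd46 was at 0.22 (adjusted p = 0.242). The properdin gene Cfp, whose product stabilises the alternative enzyme, had 2.86 and 3.69 CPM in PM2.5 and 3.94 and 4.77 CPM in Control, which did not pass the test (log2 fold change -0.43, adjusted p = 0.144), and neither did C1rl (0.27, adjusted p = 0.0703).

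Of 16 transcription factor genes known to act on complement genes, 14 were tested, with 5 higher and 2 lower and a median log2 fold change of 0.13. Calls were common in the whole data set too, at 19.2% higher and 20.4% lower of 12478 genes, whose median was 0.0063. The counts for the factor genes are therefore not read as a shift of this list. Irf1, an interferon-induced factor, and the NF-kB subunit genes Nfkb1 and Relb had log2 fold changes of 0.43, 0.31 and 0.27 (edgeR adjusted p = 0.00382, 0.00187 and 0.0177). Cebpd, a C/EBP factor of the acute-phase response, fell to 69.2 and 74.6 CPM in PM2.5, against 107 and 124 CPM in Control (log2 fold change -0.69, SE 0.079, adjusted p = 9.72e-05). With the neighbour offset Cebpd was at -0.38 (adjusted p = 0.00454). The related Cebpb was at 128 and 138 CPM in PM2.5 and 114 and 127 CPM in Control and did not pass the test (0.14, adjusted p = 0.133). Irf9, a partner of the STAT proteins, at 0.36 (adjusted p = 0.0459) and Nr1h3, the gene of the oxysterol receptor LXR alpha, at -0.62 (adjusted p = 0.0462) passed narrowly. Both calls ended with DESeq2, with limma-voom, with total gene reads and without Control replicate 2 or PM2.5 replicate 1. On total gene reads Nr1h3 was at -0.074, and its call ended also with upper-quartile scaling and with library size only. Without Control replicate 1 the call on Irf9 ended too, and that on Relb (0.19, adjusted p = 0.0946), and without PM2.5 replicate 2 those on Nr1h3 and Relb ended. The call on Relb also ended with DESeq2 and without PM2.5 replicate 1, and those on Nfkb1 and Irf9 ended with the neighbour offset (0.16, adjusted p = 0.0567, and 0.16, adjusted p = 0.36). Against a minimum change of 1.5-fold, none of the 7 factor genes was called, nor were Masp2 and Itgb2.

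Likeness to a member was measured over the 4 libraries as the Euclidean distance between log2 CPM profiles, each centred on its own mean. The search covered tested genes averaging at least 10 CPM and left out predicted genes (Gm followed by digits) and genes with Rik symbols. Nearest to C3 were Trp53inp2, an autophagy gene, at a distance of 0.0602, the cholesterol exporter Abca1 at 0.159 and the deubiquitinase gene Usp11 at 0.166. Trp53inp2 had 116 and 133 CPM in PM2.5 and 40.2 and 53.2 CPM in Control, so it shared with C3 the lower value in replicate 1 of both groups. Nearest to C4b were Enpp2, which encodes autotaxin, at 0.202, the linker histone gene H1f2 at 0.237 and Fmo1 at 0.277. Nearest to Serping1 were the aldehyde dehydrogenase gene Aldh3a1 at 0.274, the acute-phase gene Saa3 at 0.41 and Neurl3 at 0.469. With 2 libraries a group these distances reflect mostly the step between groups, and none was given for Cd55, which had no raw count.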

How the data were processed

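Polyadenylated RNA of 2 PM2.5 and 2 Control libraries was sequenced, from 750 ng of total RNA each with a stranded, ligation-based Illumina kit, per the labels' protocols. The authors deposited raw counts for each gene, not normalized, and a second count, total gene reads, for each library. RPKM values were deposited by the authors and were used for levels only. Positions are on GRCm39, per the submitters' processing notes. For the aligner, counter, annotation release and strand setting, nothing was found in the labels or headers, so reads of overlapping genes and near-identical copies may not be separated.

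Counts were tested with edgeR 4.0.16 in R 4.3.3: filterByExpr (12478 genes kept), TMM scaling (factors 1.02 and 1.024 for PM2.5, 0.973 and 0.984 for Control), a quasi-likelihood F test of PM2.5 against Control and Benjamini-Hochberg adjustment over all genes kept, with a threshold of 0.05. SEs were derived from the F statistic. Counting intervals and floors (3 counts) cover counting error only. Named were all members, called genes of the 2 other lists (at most 10 each), sequence copies of members, and the 3 genes most like C3, C4b and Serping1. Some called genes of those lists are counted but not reported here. The members and lists were chosen with earlier results of these data known. Alternatives were other scalings, other filters, DESeq2 1.42.0, limma-voom (limma 3.58.1), a replicate block, each library left out, a neighbour offset, total gene reads and a minimum change of 1.5-fold. The neighbour offset is the median log2 fold change of the 25 nearest tested genes on each side, or fewer at a chromosome end. The NF-kB consensus was tightened after a looser form was seen to match many windows.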

Additional observations from a re-analysis of the deposited data

Results flagged for a closer look

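Cd55 had 0 raw counts in every library, yet its total gene reads, a deposited count that the main comparison does not use, were 38 and 40 in the PM2.5 libraries, above the 17 and 16 in the Control libraries. These reads lie outside the main measurement, and Cd55 was not alone in having them. The regulator gene Cfi, with at most 2 raw counts in a library, was also higher on total gene reads (log2 fold change 0.98, edgeR adjusted p = 0.0301). C2, with as few raw counts, did not pass on that count (-0.185, edgeR adjusted p = 0.252).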

How the results depend on the processing

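Of 120 refits of the 8 tested members, 8 genes under 15 alternatives, 116 kept the direction and the call, 3 made Cd46 called and 1, the minimum change of 1.5-fold, ended the call on Cd59a; none turned a direction. The log2 fold change of C3 stayed between 1.16 and 1.63 and that of Serping1 between 3.24 and 3.53. That of Cfb was 1.68 to 1.77 except with total gene reads, where it was 0.40. Leaving out 1 library at a time, 7 members were higher each time, as with all libraries. Of 375 refits of 25 other genes, 340 kept the call, 33 ended it, 2 made one (Cr1l with the neighbour offset, C4a with total gene reads) and none turned a direction of a called gene.

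Against a minimum change of 1.5-fold, 515 genes were called, 401 higher and 114 lower, and 3 of the other complement genes were higher. Without 1 library the genes called numbered 3196 to 4877, the higher 1516 to 2299, the lower 1680 to 2578, and the other complement genes higher 4 to 5; the lowest counts over all genes came without PM2.5 replicate 2. With DESeq2, 1581 genes were higher. With library size only, 3074 genes were higher and 1882 lower, beside 2400 and 2545 with TMM. The samples share only a replicate number: deviations of same-numbered libraries correlated at 0.124, and with the replicate block 5773 genes were called, 8 of the members among the higher. The depth limits Serping1, C1s2 and Cd93 most, each with at most 17 Control counts.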
